A study of Drosophila melanogaster with 12 samples.

Results

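The subject here is the step from a light-dark day to the first day in constant darkness in heads of y w; tim01 Drosophila, compared hour by hour. All 12 arrays of the series enter it, as 6 pairs of the same clock hour, and all 13966 probe sets that are not array controls were tested. The groups were taken from the array titles, with no measured value used. Every fly, in both groups, carried tim01, a mutation that removes the function of the clock gene timeless, in a y w background, and had lived through 3 days of 12 h light and 12 h darkness. The constant darkness group (DD) holds 6 arrays, CT2, CT6, CT10, CT14, CT18 and CT22, with hours counted from the time when lights would have come on. The light-dark group (LD) holds 6 arrays, ZT2, ZT6, ZT10, ZT14, ZT18 and ZT22, from the day just before, with hours counted from lights-on. Each array is 1 pool of about 100 to 200 heads at 1 time point, and no label says that a time point was repeated. Hours 2, 6 and 10 were lit in LD and dark in DD, and hours 14, 18 and 22 were dark on both days.

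The DD day always follows the LD day, so darkness, the age of the flies, the time since the last light and any drift in handling cannot be told apart. Wild-type flies were not analysed here. A head holds eyes, brain, fat body, muscle and cuticle, and in such bulk RNA fewer cells of a type and less RNA per cell cannot be told apart. The comparison asks which transcripts had another mean level on the dark day, and whether the change differed between the hours that lost their light and the hours that were dark on both days.

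In a fly with a working clock, the Timeless and Period proteins feed back on their own transcription and set daily rhythms that continue in darkness. Flies without Timeless lose these rhythms in darkness but can still respond to light directly. Fly photoreceptors answer light through rhodopsin, a G protein, phospholipase C and the TRP and TRPL channels, and release histamine onto the next cells of the visual pathway. Histamine is then taken up by glia and joined to beta-alanine as carcinine, carried back into photoreceptors by the carcinine transporter CarT and split again to histamine by the hydrolase Tan, the product of the gene t.

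Values are log2 signals after RMA, and the median signal of an array was typically 4.12 in DD and 4.11 in LD. The brightest tim probe set read 6.79, 6.92, 6.62, 6.90, 6.74 and 6.65 in DD at hours 2 to 22, and 7.12, 7.05, 6.93, 6.92, 6.87 and 6.97 in LD. The DD values were the lower ones at every hour, but CT6 and CT14 lay above ZT18, so the groups overlapped. Its change was -0.21 ± 0.05 (SE), which did not pass (limma adjusted p = 0.119), and the other tim probe sets differed by 0.01 each. Arrays ZT2 and CT2 stood apart by their high levels of gut and male reproductive tract transcripts, and ZT18 by those of the male tract.

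A measure of RNA quality also moved with the day. The eIF-4a control probe sets read the 3′ and the 5′ end of 1 transcript, and their 3′ minus 5′ difference was lower in DD at 6 of 6 hours. It ran from 2.56 to 3.04 (median 2.78) in DD and from 2.89 to 3.32 (median 3.17) in LD. The 3′ end thus read above the 5′ end on every array, by a smaller margin in DD at each hour. The mean change of the difference was -0.35, with an exact paired sign-flip permutation p of 0.03125 (two-sided), the smallest that 6 pairs allow. The same difference was lower in DD at 5 of 6 hours for actin (mean change -0.27, exact permutation p = 0.0625) and at 4 of 6 hours for GAPDH (-0.16, exact permutation p = 0.125). These are 3 measures of the same kind, and their p-values are not adjusted for that.

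With clock hour as a block, 45 probe sets passed an adjusted p of 0.05 in limma, 7 higher and 38 lower in DD. That is 0.0501% of the 13966 probe sets in the higher direction and 0.272% in the lower one. Of the 45, 41 carried 1 gene symbol. The changes were small, 0.25 to 0.84 in size on the log2 scale, with a median of 0.30 among the higher and -0.34 among the lower, while the median over all probe sets was 0.01. The gene with the largest rise was t and the gene with the largest fall was CarT, which act on carcinine in the same recycling pathway. All 45 had the same sign at all 6 hours, which a test on hour pairs favours, against 3.77% of all probe sets that were higher at all 6 hours and 3.26% that were lower.

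The calls depend on how the variation between arrays is modelled. By chance about 698 of the 13966 tests would give an unadjusted p under 0.05. Without the hour block 0 probe sets passed in limma, with 1480 at an unadjusted p under 0.05 against 1726 with the block. With the eIF-4a 3′ minus 5′ difference as a covariate 0 passed as well, with 635 at an unadjusted p under 0.05, and with hours 2 and 18 left out 6 passed, 1 of them among the 45. Leaving out the pair of hour 6, 10 or 18 gave 0 calls each. Without hour 2 there were 31 calls and without hour 22 there were 37, in each case with 21 among the 45. Without hour 14 there were 207, 44 of them among the 45.

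Of the 7 probe sets that rose, t had the largest change. The log2 signal of t was 6.83, 7.20, 7.01, 7.01, 6.92 and 6.97 in DD at hours 2 to 22, and 6.69, 6.30, 5.56, 5.91, 6.14 and 6.91 in LD. DD was nearly flat, while LD was lowest at ZT10 and highest at ZT22, where it overlapped the DD range. The mean was 6.99 ± 0.12 in DD and 6.25 ± 0.50 in LD (SD, n = 6 each), a change of 0.74 ± 0.14 (SE), or 1.67-fold, with a limma adjusted p of 0.0414.

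Ttd14, which takes part in the light-dependent movement of the TRPL channel in photoreceptors, read 4.89, 5.24, 5.02, 4.93, 4.84 and 5.01 in DD and 4.43, 4.49, 4.48, 4.42, 4.53 and 4.94 in LD. Its LD values sat close together except for ZT22, which reached the DD range. It rose by 0.44 ± 0.07 (limma adjusted p = 0.0277), whereas its other, brighter probe set changed by 0.18 (adjusted p = 0.295). Nplp3, a gene for a neuropeptide-like precursor, read 10.36, 10.71, 10.45, 10.96, 10.90 and 10.89 in DD and 10.22, 10.23, 10.23, 10.56, 10.38 and 10.64 in LD, with the groups overlapping. It rose by 0.34 ± 0.06 (limma adjusted p = 0.0414).

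The gene se (sepia) encodes an enzyme in the synthesis of the red drosopterin eye pigments. It read 6.14, 6.54, 6.56, 6.42, 6.49 and 6.68 in DD and 5.95, 6.13, 6.15, 6.30, 6.14 and 6.34 in LD, overlapping, and rose by 0.30 ± 0.05 (limma adjusted p = 0.0371). SmydA-8, of the SET and MYND domain family, read 7.39, 7.98, 7.66, 7.72, 7.82 and 7.96 in DD and 7.35, 7.57, 7.39, 7.36, 7.41 and 7.67 in LD, overlapping, and rose by 0.30 ± 0.06. A dim probe set of Erasp read 3.24, 3.19, 3.40, 3.49, 3.39 and 3.51 in DD and 3.13, 2.86, 3.07, 3.19, 2.98 and 3.28 in LD and rose by 0.29 ± 0.05. The other, brighter Erasp probe set changed by 0.10 (limma adjusted p = 0.563). CG5023 completed the group with a rise of 0.27 ± 0.05. None of these 7 had all DD arrays above all LD arrays, a pattern shown by 0.251% of all probe sets.

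**Figure D1:**
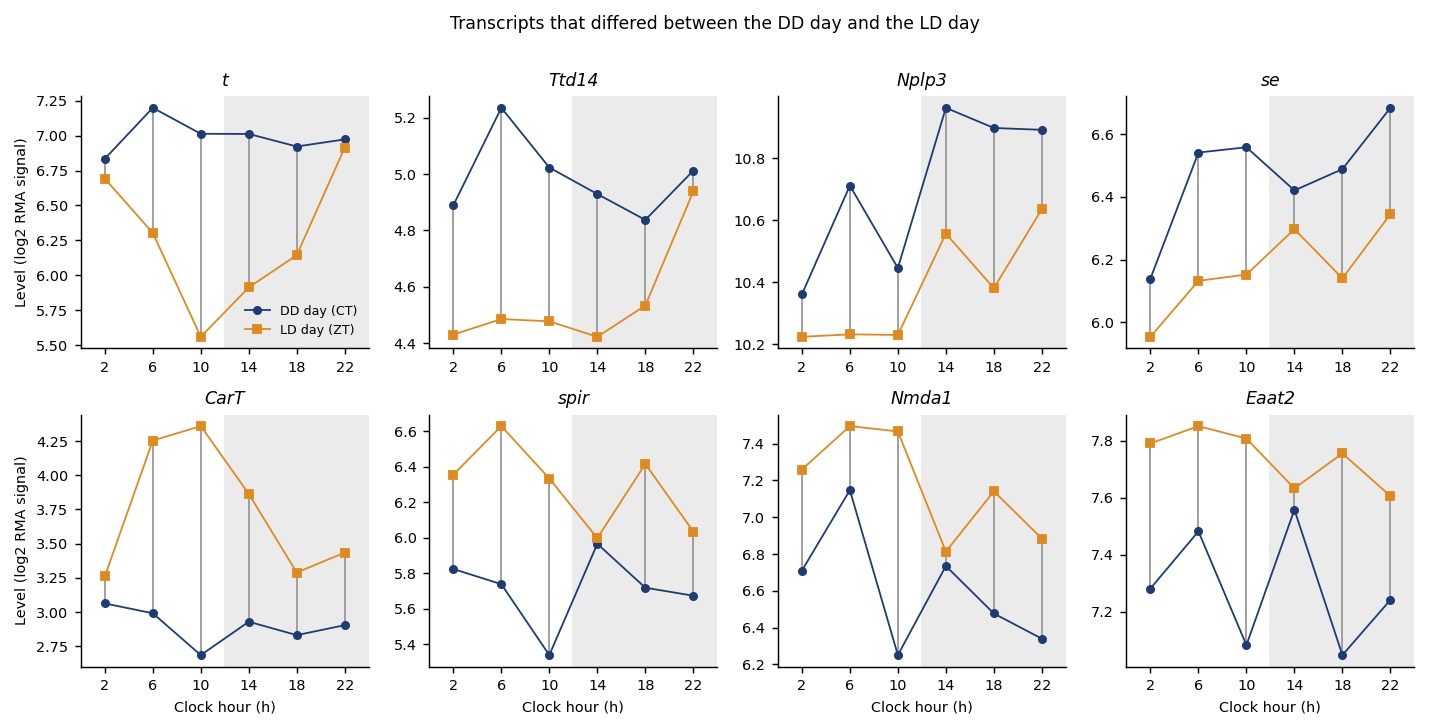
DD (circles) and LD (squares) levels of 4 genes that rose (top) and 4 that fell (bottom) against clock hour, in log2 RMA signal, with 1 array per point, a grey line joining each pair of arrays, grey shading over hours 12 to 24 and a scale of its own for each gene that does not start at 0. DD lies above LD at all 6 hours in the top row and below it in the bottom row, and t and CarT are flat in DD and curved in LD.

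Among the 38 probe sets that fell, CarT had the largest change. Its log2 signal was 3.06, 2.99, 2.69, 2.93, 2.83 and 2.90 in DD at hours 2 to 22, and 3.26, 4.25, 4.36, 3.86, 3.29 and 3.44 in LD. All DD arrays lay below all LD arrays, and LD was highest at ZT6 and ZT10. The mean was 2.90 ± 0.13 in DD and 3.74 ± 0.49 in LD (SD, n = 6 each), a change of -0.84 ± 0.14 (SE, limma adjusted p = 0.0277). The probe set is dim, with both group means below the array medians and ZT6 and ZT10 alone above them, and the other CarT probe set, dimmer still, changed by -0.29 (adjusted p = 0.106).

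The actin-nucleating protein gene spir read 5.82, 5.74, 5.34, 5.97, 5.72 and 5.67 in DD and 6.36, 6.63, 6.33, 5.998, 6.42 and 6.04 in LD, without overlap. It fell by 0.58 ± 0.10 (limma adjusted p = 0.0277), but its other 3 probe sets changed by -0.12 to -0.04 and did not pass. Nmda1, a gene for a membrane protein that is not the glutamate receptor subunit Nmdar1, read 6.71, 7.15, 6.25, 6.74, 6.48 and 6.34 in DD and 7.26, 7.50, 7.47, 6.81, 7.14 and 6.88 in LD, and CT6 lay within the LD range. It fell by 0.57 ± 0.10 (limma adjusted p = 0.0371).

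The amino acid transporter gene Eaat2 read 7.28, 7.48, 7.08, 7.56, 7.05 and 7.24 in DD and 7.79, 7.85, 7.81, 7.63, 7.76 and 7.61 in LD, again without overlap, and fell by 0.46 ± 0.07 (limma adjusted p = 0.0277). CG2082 read 5.63, 6.12, 5.77, 6.07, 5.91 and 5.95 in DD and 6.46, 6.68, 6.55, 6.27, 6.18 and 6.27 in LD, without overlap, a change of -0.49 ± 0.08. CG46339 read 4.87, 4.67, 4.41, 4.79, 4.41 and 4.48 in DD and 5.21, 5.37, 5.16, 5.10, 4.93 and 4.68 in LD, with overlap, a change of -0.47 ± 0.07. Across the 38, 10 had all DD arrays below all LD arrays, which 0.265% of all probe sets showed.

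The next genes in size were a phosphate transporter, chaperones and a lipid enzyme. NaPi-III fell by 0.41 ± 0.08, the mitochondrial Hsp70 gene Hsc70-5 by 0.41 ± 0.07 and CG6230 by 0.39 ± 0.07. The fatty acid desaturase gene Desat1 averaged 8.81 ± 0.20 in DD and 9.18 ± 0.23 in LD (SD, n = 6 each) and fell by 0.37 ± 0.06 (limma adjusted p = 0.0360). CCT2, a subunit of the CCT chaperonin that folds actin and tubulin, fell by 0.37 ± 0.06, and the co-chaperone gene stv (starvin) by 0.38 ± 0.07. Other probe sets of CCT2 (-0.03) and stv (-0.04) did not show these changes. The genes ckn and Mes2 also had a probe set among the 38 and another that changed by 0.04. Where a gene that fell had other probe sets, none of those others passed over the day. Of the 38 probe sets that fell, 30 (78.9%) lie in the upper part of the platform's probe set numbering, which holds 29.8% of all tested. The median change was -0.01 over all probe sets in that part and 0.02 over the rest.

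With the eIF-4a difference in the model, most falls were smaller and most rises larger. Of the lower calls, 36 of 38 stayed negative, their median change was -0.23, and 29 were smaller in size. All 7 higher calls stayed positive with a median of 0.50, and 5 were larger. No probe set passed in that fit. The changes were 1.09 ± 0.35 (SE) for t, -1.21 ± 0.36 for CarT, 0.67 ± 0.18 for Ttd14 and 0.56 ± 0.15 for Nplp3. For Nmda1 the change was 0.07 ± 0.20, for Eaat2 -0.04 ± 0.16, for Desat1 -0.01 ± 0.14 and for CG2082 -0.18 ± 0.19. These SEs exceeded those with the hour block alone, as for t with 0.35 against 0.14. How much of the loss of calls came with that lower precision was not tested. With the actin difference in place of the eIF-4a one, 7 probe sets passed, none of them among the 45. With the GAPDH difference 0 passed (smallest limma adjusted p 0.0504), with 1150 at an unadjusted p under 0.05 against about 698 by chance.

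**Figure D2:**
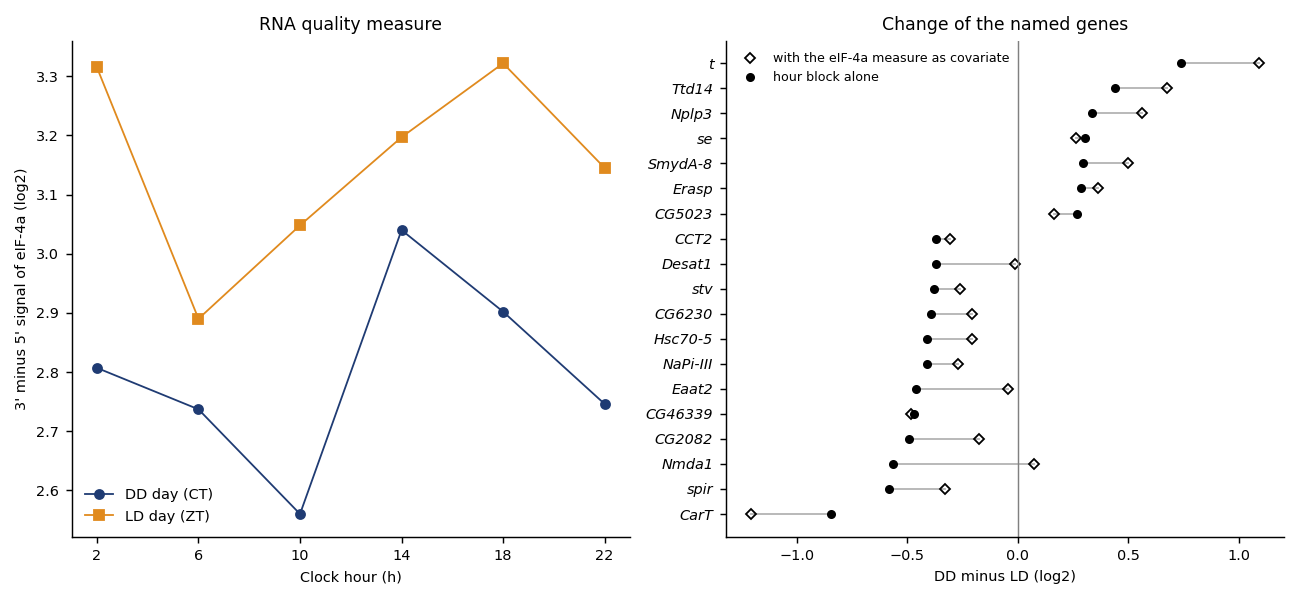
Left, the eIF-4a 3′ minus 5′ difference (log2) by clock hour, 1 array per point, lower in DD (circles) than in LD (squares) at all 6 hours. Right, DD minus LD (log2) of the 19 named genes with the hour block alone (filled circles) and with the eIF-4a difference as a covariate (open diamonds), where the change of Nmda1 lies at 0.07 and that of t at 1.09.

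The median fall was larger at each hour that lost its light than at any hour dark on both days. The median change of the 38 lower calls was -0.38 at hour 2, -0.37 at hour 6 and -0.48 at hour 10, against -0.20, -0.32 and -0.26 at hours 14, 18 and 22. Of the 38, 34 had a larger fall over the lit hours than over the hours dark on both days. The 7 higher calls changed by a median of 0.14, 0.41 and 0.33 at the lit hours and 0.37, 0.40 and 0.26 at the dark ones, and 4 of the 7 rose more at the lit hours. These medians and counts describe probe sets chosen in the same fit, and 34 of 38 and 4 of 7 were not set against all probe sets. Tested probe set by probe set, 12 of the 45 had an unadjusted p under 0.05 in limma for the difference between lit and dark hours. Over all 13966 probe sets 970 had such a p, and none of the 45 passed.

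**Figure D3:**
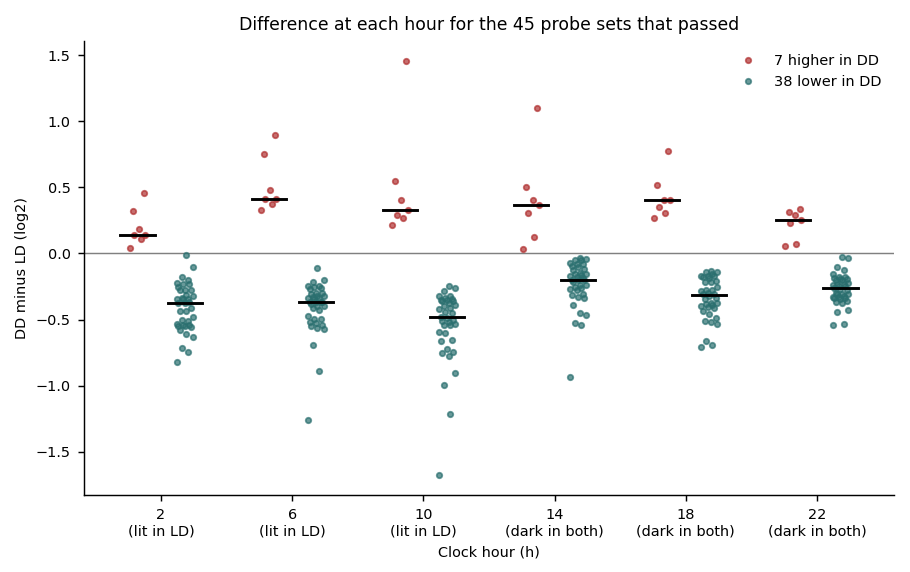
DD minus LD (log2) at each clock hour for the 7 probe sets higher and the 38 lower in DD that passed the test, 1 point per probe set, with black bars at the medians. The lower set has its deepest median, -0.48, at hour 10 and its shallowest, -0.20, at hour 14.

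For the mean change over the 3 lit hours, 142 probe sets passed in limma, 20 higher (0.143% of those tested) and 122 lower in DD (0.874%). In this set were 31 of the 45 probe sets of the whole-day comparison, 68.9% of that list and 21.8% of the 142. Both lists share arrays, so the overlap is no separate evidence. Without the hour block 26 passed, all of them among the 142. With the actin covariate 39 passed, 10 of them among the 142, and without hour 10 19 passed, 13 of them among the 142. With the eIF-4a covariate 0 passed, with 657 at an unadjusted p under 0.05, where chance gives about 698.

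Among the genes that fell at the lit hours, the deubiquitinase gene Usp8 had the largest change. It read 7.01, 6.95 and 6.66 at CT2, CT6 and CT10, against 7.64, 8.08 and 8.19 at ZT2, ZT6 and ZT10, with no overlap. Its change there was -1.10 ± 0.13 (limma adjusted p = 0.00257), against -0.24 at the dark hours. CG2121 fell by 1.08 ± 0.17, CarT by 1.05 ± 0.19, CG5455 by 0.99 ± 0.08, spir by 0.80 ± 0.11 and c11.1 by 0.74 ± 0.11. The other, dimmer CG2121 probe set changed by -0.02 (limma adjusted p = 0.938). Usp8 and CG2121 are on a list of 17 clock outputs reported from heads, of which 3 passed lower and 1 higher at the lit hours, with a median of -0.04. Over all 10844 genes, 99 passed lower and 14 higher there, with a median of 0.02.

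The rises at the lit hours had a median of 0.45 over the 20 probe sets, and the falls a median of -0.44 over the 122. Among the genes that passed, Achl had the largest rise, 0.69 ± 0.09 (limma adjusted p = 0.00400). It read 4.17, 4.03 and 4.13 at CT2, CT6 and CT10, against 3.69, 3.20 and 3.38 at ZT2, ZT6 and ZT10. Ttd14 rose by 0.59 ± 0.09, rgr by 0.56 ± 0.11, CG8468 by 0.55 ± 0.10, Drat by 0.55 ± 0.09 and CG9717 by 0.53 ± 0.08. The second probe sets of rgr (0.09, limma adjusted p = 0.628) and CG8468 (0.22, adjusted p = 0.185, the brighter of its pair) did not pass. For t the change was 0.83 ± 0.19 at the lit hours and did not pass (adjusted p = 0.0570).

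At hours 14, 18 and 22, when both days were dark, 0 probe sets passed in limma (0% of those tested), with a smallest adjusted p of 0.364. At an unadjusted p under 0.05 there were 927, where chance gives about 698. The 5 genes with the smallest p were CG9150 (-0.41), CG32444 (0.45), EloB (0.37), Fs (0.38) and jdp (0.37), none of which passed. At these hours the 122 probe sets lower at the lit hours had a median change of -0.13, and 107 of them were negative. The 20 higher at the lit hours had a median of 0.03, and 12 were positive. Over all 10844 genes, 5150 changes were negative at the dark hours, with a median of 0.005.

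**Figure D4:**
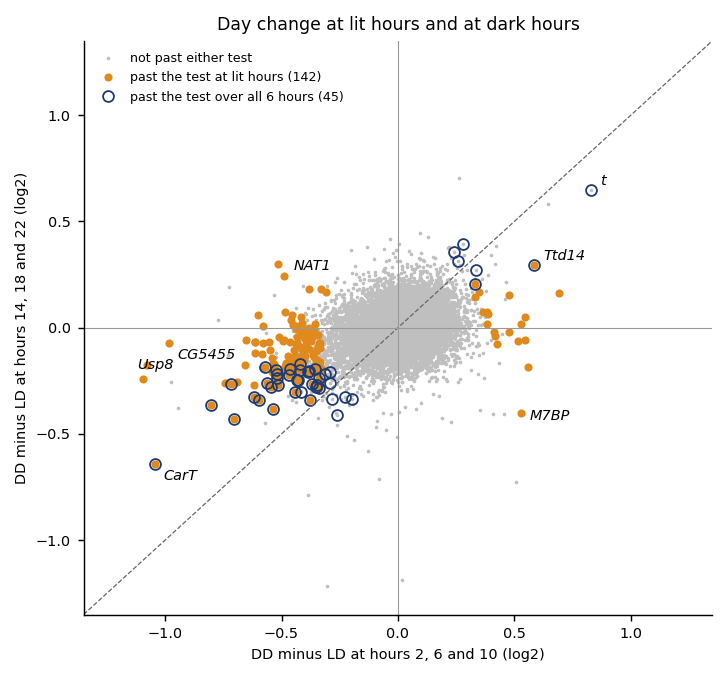
DD minus LD (log2) at the lit hours (horizontal) and at the hours dark on both days (vertical) for all 13966 probe sets in grey, the 142 past the test at the lit hours in orange and the 45 past the test over all 6 hours as open circles, with a dashed line at equal change. Most of the 122 points lower at the lit hours lie between the dashed line and 0 on the vertical axis, with a median of -0.13 there.

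The difference itself, the change at lit hours minus the change at dark hours, passed in limma for 3 probe sets (0.0215% of those tested). CG5455 read 5.99, 6.30 and 5.86 at CT2, CT6 and CT10, against 6.91, 7.13 and 7.06 at ZT2, ZT6 and ZT10. At the later hours it read 6.27, 5.999 and 6.05 in DD, against 6.23, 6.09 and 6.21 in LD. The 3 lit LD arrays stood above all the others, and the difference was -0.91 ± 0.11 (adjusted p = 0.0154).

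NAT1, a gene for a translation factor related to eIF4G, read 4.83, 4.78 and 4.93 at CT2, CT6 and CT10, against 5.19, 5.40 and 5.40 at ZT2, ZT6 and ZT10. At the later hours it read 5.08, 4.98 and 5.15 in DD, against 4.71, 4.81 and 4.96 in LD. DD was the lower group at the lit hours and the higher one at the dark hours, and the difference was -0.73 ± 0.11 (limma adjusted p = 0.0363). M7BP went the other way: 1 of its 5 probe sets read 4.53, 4.87 and 4.45 at CT2, CT6 and CT10, against 4.09, 4.18 and 3.99 at ZT2, ZT6 and ZT10. Its later values were 4.56, 4.27 and 4.23 in DD, against 4.78, 4.92 and 4.56 in LD, and the difference was 0.93 ± 0.13 (limma adjusted p = 0.0204). The brightest 2 M7BP probe sets, with mean signals of 7.51 and 7.76, did not show this crossing, with changes of 0.29 and 0.26 over the day and 0.36 and 0.21 at the lit hours, none of which passed. The remaining 2 probe sets of M7BP, both dim, changed by -0.06 and 0.01 over the day.

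The genes with the next smallest p did not pass: Lsd-1, the gene for a perilipin of lipid droplets, with -0.81 (limma adjusted p = 0.0666), CG6429 with 0.81 (0.233) and Prat2 with -0.50 (0.258). The 3 calls depend on the fit as well, since 0 passed without the hour block, without hours 2 and 18, and without hour 10, 18 or 22 alone. With the eIF-4a covariate 2 passed, both of them among the 3.

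**Figure D5:**
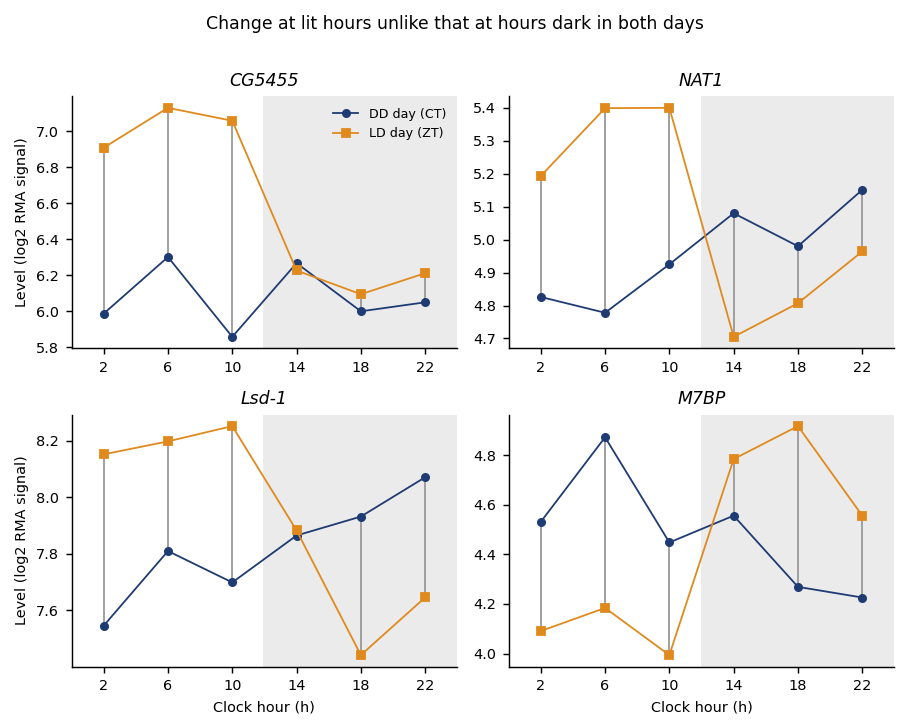
DD (circles) and LD (squares) levels of CG5455, NAT1, Lsd-1 and M7BP against clock hour, in log2 RMA signal, 1 array per point, with grey shading over hours 12 to 24 and a scale of its own for each gene that does not start at 0. The LD level of CG5455 is high at hours 2, 6 and 10, while the curves of NAT1 and M7BP cross between hours 10 and 14. The curves of Lsd-1, which did not pass the test, meet at hour 14 and part after it.

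Gene lists were read by their counts and medians, with 1 probe set for each of 10844 genes, of which 5 passed higher and 31 lower in DD with a median change of 0.01. Of these 10844 changes 6068 were positive and 4776 negative, and at the lit hours 14 genes passed higher and 99 lower. In the list for histamine, dopamine and serotonin handling, 11 of 18 changes were positive and the median was 0.03. There t was the 1 gene that passed higher and CarT the 1 that passed lower. Other genes of the histamine cycle, picked after their values were seen, did not pass: the synthesis enzyme gene Hdc (-0.09), the histamine receptor gene ort (0.09), the beta-alanine transporter gene Balat (0.07) and ine (0.02). Of 24 genes for rhodopsins, arrestins and phototransduction, 0 passed (median 0.03). The G protein subunit genes of the eye had changes of 0.27 for Ggamma30A (limma adjusted p = 0.0520) and 0.40 for Gbeta76C (0.0709). The channel gene trpl changed by -0.33 over the day and fell by 0.58 at the lit hours (adjusted p = 0.0161).

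In 3 lists of chaperones most changes were negative, against 4776 of 10844 over all genes. Of 9 ER chaperone genes 0 passed, but all 9 changes were negative, with a median of -0.18 and Sil1 at -0.29 (limma adjusted p = 0.0594). Of 8 CCT subunits, CCT2 fell, 7 changes were negative and the median was -0.12. Of 14 heat shock and co-chaperone genes, Hsc70-5 fell, 10 changes were negative and the median was -0.04. At the lit hours Hsc70-4 (-0.49) and Hsp110 (-0.61) fell as well.

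Of 30 genes of lipid synthesis and storage, Desat1 was the 1 that passed over the day, and it fell. In this list 22 changes were negative and the median was -0.06. At the lit hours 6 of the 30 fell, against 99 of all 10844 genes, among them the fatty acid synthase gene FASN1 (-0.66), Pect (-0.54) of phospholipid synthesis and the ATP citrate lyase gene ATPCL (-0.37). Among 23 genes of glycolysis and carbohydrate use, the glucose-6-phosphate isomerase gene Pgi fell by 0.28. In 4 other lists 1 gene each passed, all lower: the glial transcription factor gene repo (-0.29, of 13 glia markers), CG14186 (-0.33, of 15 activity-regulated genes), GstE6 (-0.34, of 34 glutathione S-transferases) and the isoleucyl-tRNA synthetase gene IleRS (-0.31, of 29). Of 28 neuropeptide genes, 15 had positive changes, and Nplp3 was the 1 that passed.

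In the other lists nothing passed over the day. All 14 core clock genes stayed under the threshold, 10 of them with negative changes (median -0.02). The muscle markers had 16 of 20 positive changes (median 0.11), and their mean level, relative to the average of all arrays, ran from -0.01 to 0.14 in DD and from -0.14 to 0.01 in LD. Of 66 genes of oxidative phosphorylation 50 had positive changes (median 0.05), as had 71 of 92 cuticle protein genes (median 0.04), against 6068 of all 10844 genes. The male reproductive tract list, high on CT2, ZT2 and ZT18, had 25 of 31 changes negative (median -0.08). How much of any list's shift comes with the eIF-4a difference between the days was not tested.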

How the data were processed

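Adult head RNA of y w; tim01 flies was measured on 12 Affymetrix-type arrays, 1 per time point; about 25 µg of total RNA per sample was labelled with biotin, per the labels' protocols. The authors deposited log2 signals, 1 per probe set and array, made with RMA per the submitters' processing notes; its version is not given in the sources used here. RMA brings arrays to nearly 1 distribution, which hides any change shared by most transcripts. With no counts or detection calls on file, precision is limited by the number of arrays. No 2 arrays shared more than 55 values, so none was deposited in duplicate.

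Of 14010 probe sets, 44 controls were left out. The platform annotation gave 1 symbol to 12443 of the 13966 tested, several to 327 and none to 1196; 12394 matched the RefSeq gene table by Entrez number. The linear models of limma 3.58.1 (R 4.3.3; moderated with an intensity trend) fitted the day change with clock hour as a factor (5 residual degrees of freedom, prior 9.79), and the lit and dark hours in 1 model (4 residual, prior 10.3), with Benjamini-Hochberg adjustment over 13966 probe sets and a threshold of 0.05. Folds and SEs are limma's on the log2 scale. Clock hours are no replicates of a condition. The p-values set the mean DD minus LD change against its spread between hours, which limma moderates with that of other probe sets. Same-hour arrays were checked for shared deviations from their day means: the correlation was 0.0409 to 0.463, and 4 of 6 hours correlated best with their own hour. The block is part of the stated comparison.

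The comparison and the 46 gene lists were chosen with earlier results of these data known. Lists use the brightest probe set of each of 10844 genes. A gene that is no proteasome subunit was taken off the proteasome list after its values were seen, which changed no call. Named genes were the up to 12 largest changes in each direction of 1 sign at all 6 hours, up to 6 at the lit hours and for the difference, up to 4 of each list by p, and tim. The steps were tested on simulated data. A planned search of promoters was not run, and no sequences or positions were used.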

Additional observations from a re-analysis of the deposited data

Results flagged for a closer look

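Among 190 series of 6 arrays, 8 held an array far from the other 5, and chance gives about 5% of such series. Ttd14 read 4.94 at ZT22, against 4.42 to 4.53 on the other LD arrays. The clock gene cyc read 5.58 at CT6, against 5.30 to 5.39 on the other DD arrays, and 5.78 at ZT14, against 5.40 to 5.51 on the other LD arrays. Mean marker levels, given relative to the average of all arrays, also held such arrays. Gut enzymes reached 0.31 on CT2 (others -0.12 to 0.00) and 0.55 on ZT2 (others -0.16 to 0.02). The male reproductive tract list reached 0.50 on CT2 (others -0.23 to -0.08). Eggshell and germline genes reached 0.12 on CT10 (others -0.02 to 0.03), and neuron markers 0.15 on CT14 (others -0.05 to 0.01).

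The day change differed between the lit hours and the hours dark on both days, by limma's test of the difference, for 1 of 5 M7BP probe sets (0.93), NAT1 (-0.73) and CG5455 (-0.91). The 2 brightest M7BP probe sets changed by 0.29 and 0.26 over the day and by 0.36 and 0.21 at the lit hours, and none of these changes passed.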

How the results depend on the processing

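The count of 45 probe sets for the day change fell to 0 with no replicate block, with a 24 h cosine and sine in place of the block, with the eIF-4a covariate, with the GAPDH and the mean quality covariate, with elapsed hours as a covariate and no block, and with limma's unmoderated paired test. It was 7 with the actin covariate, 6 with hours 2 and 18 left out, 1 with ZT2, ZT18 and CT2 left out and no block, and 78 with array weights, and leaving out 1 hour pair at a time gave 0 to 207. It stayed within 1.5 times of 45 without the intensity trend, with robust moderation, on bright probe sets, and with arrays centred on their medians or quantile-normalized, at 37 to 66. For the lit hours the 142 became 26 with no replicate block and 0 with the eIF-4a covariate. The count was 39 with the actin covariate, 10 of them among the 142, and 19 to 224 without 1 hour pair (90 without hour 2, 63 without hour 6). For the dark hours the range without 1 pair was 0 to 1. The 3 calls for the difference became 0 with no replicate block, 0 with hours 2 and 18 left out and 0 to 5 without 1 pair. With the eIF-4a covariate 2 passed, both of them among the 3. The actin, GAPDH and mean quality covariates, and those for the lit-hour and difference counts, were chosen after seeing the data. So was leaving out hours 2 and 18 together for the lit, dark and difference counts. With elapsed hours as a covariate these changes took the other sign (± SE): Nplp3 -0.23 ± 0.15, se -0.088 ± 0.13, SmydA-8 -0.0054 ± 0.16, Erasp -0.00078 ± 0.13, CG5023 -0.051 ± 0.12, Nmda1 0.031 ± 0.23, CG46339 0.079 ± 0.15, CCT2 0.025 ± 0.14, CG9150 0.32 ± 0.19, repo 0.047 ± 0.14, cert 0.042 ± 0.14 and Ocrl 0.033 ± 0.14. All but those of Nplp3 and CG9150 were smaller than their SE. With the eIF-4a covariate Nmda1 (0.073 ± 0.20) and ifc (0.10 ± 0.13) took the other sign, each by less than its SE. In the fit with elapsed hours 28 of the 45 kept their sign; with the hour block, elapsed time and day cannot be told apart. The list medians were recomputed under 2 alternatives, the mean over all probe sets of a gene and hours 2 and 18 left out, and all 46 moved by less than their spread between hours in both. The causes were not tested.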

Other observations

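Further genes with a probe set that fell on the DD day are named here after their values were seen. They were picked by hand from the 38, and no theme among them was tested. TER94, the fly p97 ATPase that extracts proteins for degradation, changed by -0.31. The ceramide transfer protein gene cert changed by -0.32 and ifc, a dihydroceramide desaturase gene, by -0.36. Changes of -0.30 for the phosphoinositide phosphatase gene Ocrl, -0.32 for aux (auxilin, which uncoats clathrin vesicles), -0.28 for the Arf exchange factor gene siz and -0.31 for NUCB1 also passed in limma. The stress-response transcription factor gene cnc had 1 of 4 probe sets that fell, by 0.30, while its other 3 changed by 0.01 to 0.15. The other probe sets of siz changed by 0.02 and 0.06. With the eIF-4a difference as a covariate the changes were -0.28 for TER94, -0.39 for cert, -0.19 for Ocrl, -0.09 for aux, -0.15 for siz, -0.19 for NUCB1 and -0.17 for cnc. For ifc the change took the other sign, at 0.10 ± 0.13 (SE), and none of these passed.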
